A study of Homo sapiens with 12 samples.

Results

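The binding sites of the transcription factor SREBP2 were set against chromatin carrying H3K27ac, acetylation of lysine 27 of histone H3, in vehicle-treated HCC70 cells. HCC70 is an established human triple-negative breast cancer line, and 1 library per antibody was made by ChIP-seq after 24 h with vehicle. Every peak of either antibody on chromosomes 1 to 22 and X was taken, 117441 SREBP2 peaks and 95099 H3K27ac peaks (called acetylated regions here), together 212540 of the 684829 peaks in the 6 immunoprecipitated libraries of the series. The study treated HCC70 with vehicle or with XY018, an antagonist of the nuclear receptor RORγ given at 5 µM in the sample labels and at a lower dose in the methods of the study, and used antibodies against SREBP2, RORγ (rabbit serum) and H3K27ac. The 2 XY018 libraries of SREBP2 and H3K27ac and the RORγ vehicle library serve here only as comparators. With 1 library per group, no value has a replicate check and no p-value was computed. The intervals given are exact 95% intervals on counts, or order-statistic 95% intervals on medians, and cover counting error only.

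SREBP2, encoded by SREBF2, is a basic helix-loop-helix leucine zipper protein held in the endoplasmic reticulum while sterols are plentiful. When sterols run low it is cleaved in the Golgi, and the released fragment enters the nucleus, binds sterol regulatory elements (SREs) and switches on genes of cholesterol synthesis and uptake. H3K27ac is laid down by the acetyltransferases p300 and CBP on nucleosomes next to active promoters and enhancers. Factors commonly bind the nucleosome-depleted stretch between such nucleosomes, and in profiles of high resolution this stretch appears as a dip flanked by acetylated summits.

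The label of the cells was checked on marker promoters. H3K27ac, present at 66.8% of all protein-coding promoters, was found at 8 of 10 basal breast markers, among them EGFR at a fold enrichment of 83.2 and KRT5 at 15.7, but not at KRT14 and KRT6A. It was also found at 7 of 10 luminal markers, with XBP1 at 124.4, FOXA1 at 97.4, ERBB2 at 83.4 and GATA3 at 68.9. ESR1, the oestrogen receptor gene, had a weak acetylated region of fold 5.07 with 10 fragments at its summit, whereas PGR and TFF1 had none. Of the blood markers, CD14 had a weak region of fold 8.29, and PTPRC, CD3E and HBB had none. Promoters of both breast lineages were thus acetylated. Of the receptor genes whose products define the triple-negative label, ERBB2 was strongly and ESR1 weakly acetylated, and PGR was not.

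Sequence at the strongest sites shows what the DNA under each class of site looked like. The following are short windows centred on the summit, the + strand of GRCh37 (the same build as hg19), with every CG dinucleotide in capitals. Each is among the highest-fold sites of its class and lies outside annotated exons, and the classes are promoter, gene body and intergenic SREBP2 peaks with and without an acetylated region, followed by a promoter and a gene body acetylated region without SREBP2.
PRKAR1B promoter, SREBP2 with H3K27ac, chr7:751804-751904: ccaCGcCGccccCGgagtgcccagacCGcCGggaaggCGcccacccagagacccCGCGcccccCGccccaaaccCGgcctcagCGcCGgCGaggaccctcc
ENSG00000225603 promoter, SREBP2 without H3K27ac, chr1:146522240-146522340: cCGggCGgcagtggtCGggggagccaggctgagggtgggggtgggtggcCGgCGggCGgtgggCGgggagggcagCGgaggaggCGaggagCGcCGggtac
CCDC171 gene body, SREBP2 with H3K27ac, chr9:15810538-15810638: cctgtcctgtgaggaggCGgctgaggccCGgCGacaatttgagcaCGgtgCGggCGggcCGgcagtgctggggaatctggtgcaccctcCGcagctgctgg
ZNF248 gene body, SREBP2 without H3K27ac, chr10:38069596-38069696: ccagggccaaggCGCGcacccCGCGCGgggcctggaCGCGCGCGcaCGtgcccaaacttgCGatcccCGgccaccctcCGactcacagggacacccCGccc
Intergenic nearest PCMTD2, SREBP2 with H3K27ac, chr20:62947920-62948020: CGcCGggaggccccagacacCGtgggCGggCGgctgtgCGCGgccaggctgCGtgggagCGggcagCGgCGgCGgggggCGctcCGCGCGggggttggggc
Intergenic nearest NAALADL2, SREBP2 without H3K27ac, chr3:176080036-176080136: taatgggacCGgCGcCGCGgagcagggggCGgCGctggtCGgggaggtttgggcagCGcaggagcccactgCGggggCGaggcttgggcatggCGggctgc
CDC5L promoter, H3K27ac without SREBP2, chr6:44355612-44355712: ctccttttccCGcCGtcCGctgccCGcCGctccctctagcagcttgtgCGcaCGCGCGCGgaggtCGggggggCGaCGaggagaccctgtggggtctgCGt
SCIRT gene body, H3K27ac without SREBP2, chr6:44010457-44010557: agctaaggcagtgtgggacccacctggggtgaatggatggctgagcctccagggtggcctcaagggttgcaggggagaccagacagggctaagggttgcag
The 6 SREBP2 windows held between 8 and 16 CG dinucleotides, whether or not the site was acetylated. The CDC5L promoter held 14, and the acetylated SCIRT window without SREBP2 held 0. The first question was how far the SREBP2 and H3K27ac lists coincided. Of the SREBP2 peaks, 32034 of 117441, or 27.3% (27 to 27.5), shared at least 1 bp with an acetylated region. In the other direction, 30573 of 95099 acetylated regions, or 32.1% (31.9 to 32.4), held part of a SREBP2 peak. Most peaks of either list as deposited thus stood alone. With SREBP2 peaks held to q of at most 1e-05 the share rose to 47.7% where H3K27ac was held to the same q. It was 50.2% where H3K27ac was not held to it. At that threshold SREBP2 peaks with and without an acetylated region were thus of similar number.

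Position in the genome separated the sites strongly. A promoter window began 1000 bp before an annotated transcript start and ended 100 bp after it. At promoters 17257 of 29059 SREBP2 peaks, 59.4% (58.8 to 60.0), were acetylated, against 19.9% (19.6 to 20.3) of 58966 gene body peaks and 10.3% (9.95 to 10.6) of 29416 intergenic peaks. Promoters held 24.7% of SREBP2 peaks but most of the acetylated ones. The reverse shares had the same order, with SREBP2 at 62.1% (61.6 to 62.7) of 26588 promoter, 21.3% (21.0 to 21.7) of 52421 gene body and 17.9% (17.3 to 18.5) of 16090 intergenic acetylated regions. RORγ peaks, measured in the same way, overlapped acetylated regions less often, at 16.7% of all peaks, 54.9% at promoters, 12.1% in gene bodies and 4.85% between genes, in a longer list of 167264. In the XY018 pair the SREBP2 share was 36.6%, on a shorter list of 69700 SREBP2 peaks.

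Overlap rose with the strength of the peak. Fold enrichment is the fragment pileup at the summit plus 1 over the local background plus 1. SREBP2 peaks with H3K27ac had a median fold of 10.2 and a width of 529 bp, against 3.95 and 244 bp for those without. With each list divided by fold into 10 classes of equal size, from the weakest to the strongest class of SREBP2 peaks the share with H3K27ac went from 9.08% to 70.4%, and at promoters from 23.2% to 77.5%. Acetylated regions showed the same more steeply, with SREBP2 at 13.5% of the weakest class and 96.3% of the strongest, and at 98.3% of the strongest class at promoters. The strongest class of intergenic acetylated regions held SREBP2 at 78.9%, and that of gene body regions at 85.8%. The folds of both signals were also compared over the 30621 SREBP2 peaks that met exactly 1 acetylated region. There the folds of the SREBP2 and H3K27ac peaks had a Spearman correlation of 0.33, and 0.21 within promoters (n = 16407). These points share both libraries, and broad and strong peaks overlap others more readily.

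**Figure D1:**
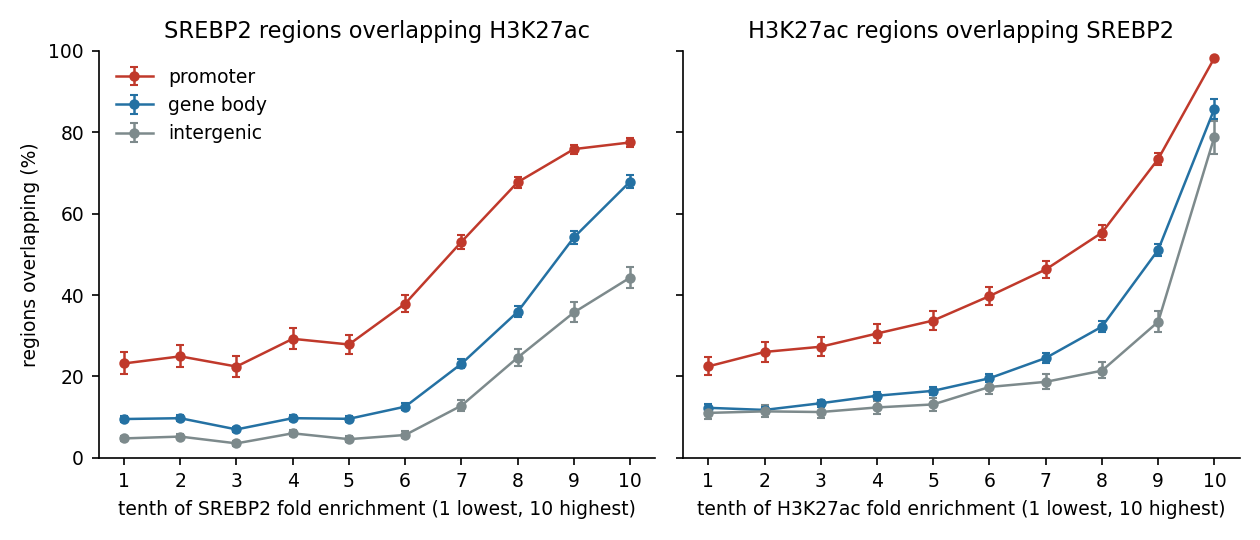
Share of peaks overlapping the other list (percent, vertical axis) by 10 classes of the peak's own fold enrichment (horizontal axis), for SREBP2 peaks (left) and acetylated regions (right), at promoters, in gene bodies and between genes, with exact 95% intervals. Both sets of curves climb, and the strongest class of promoter acetylated regions reaches 98.3%.

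Broad acetylated regions met SREBP2 more often. Of regions under 300 bp, 20.1% met SREBP2, against 33.3% of those of 500 to 1000 bp, 59.6% of those of 1000 to 2000 bp and 81.8% (80.2 to 83.3) of 2458 regions of 2000 bp or more. Of the last class, 35.6% held at least 2 SREBP2 peaks. Over the whole list 64526 acetylated regions met no SREBP2 peak, 27908 met 1, 2323 met 2, 282 met 3 and 60 met 4 or more. Of the broadest class 77.3% lay at promoters.

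SREBP2 peaks with acetylation also returned more often in the other libraries. Of those with H3K27ac, 73.1% overlapped a RORγ peak and 75.9% a SREBP2 peak of the XY018 library, against 39.9% and 26.2% of those without. Restricting both classes to SREBP2 peaks with q of at most 1e-05 (25738 with and 25503 without H3K27ac) narrowed the gap, to 86.6% against 73.3% for RORγ and 91.0% against 67.2% for SREBP2 with XY018. An H3K27ac peak of the XY018 library lay at 82.7% of the peaks acetylated with vehicle and at 5.68% of the others. Strong SREBP2 peaks without H3K27ac were therefore mostly found again with SREBP2 in the XY018 library, and mostly without acetylation there as well.

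The second question was where within acetylated chromatin SREBP2 sat, on the acetylated summit or in the dip between acetylated nucleosomes. Peak lists answer it only in part. They hold edges and summits, and no peak was narrower than 185 bp for SREBP2 or 190 bp for H3K27ac. A dip too narrow to split a region cannot be seen in them. The values below therefore cannot tell an acetylated summit from an unresolved dip, and place SREBP2 against called regions, gaps and summits only. The SREBP2 summit lay inside the acetylated region for 30718 of the 32034 overlapping peaks, 95.9%, and the other 1316 summits lay a median of 100.5 bp (93 to 109) beyond its edge. Per Mb of chromatin, acetylated regions held 490 SREBP2 summits (485 to 496), against 41.4 over the genome and 25.8 at more than 5000 bp from any acetylated region. Gaps of at most 1000 bp between neighbouring acetylated regions, where a nucleosome-depleted stretch wide enough to split a region would fall, held 49.5 per Mb (45.8 to 53.4). That was close to the 46.1 per Mb (43.4 to 48.9) of outer flanks within 200 bp of a region. It was below the 83.0 per Mb of flanks at 500 to 1000 bp. With SREBP2 peaks held to q of at most 1e-05, gaps held 13.1 per Mb (11.3 to 15.2), the nearest flanks 16.0 and the regions 399.7.

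Density fell towards the edge from within. It was 623 per Mb at more than 200 bp inside an edge, 650 at 100 to 200 bp, 233 at 50 to 100 bp and 92.5 at under 50 bp. SREBP2 summits thus sat in the interior of called regions, and the first 200 bp outside held fewer than flanks from 200 bp out to 5000 bp. Peaks must have a minimum width around their summit, and the part this plays in the low density beside edges was not tested. Within promoter windows the values were higher throughout, at 766 per Mb inside, 80.4 in gaps and 69.5 in the nearest flanks, and outside promoters they were 390.5, 42.7 and 40.9. RORγ summits gave 421 per Mb inside and 52.4 in gaps, and the XY018 pair of SREBP2 and H3K27ac gave 373 and 24.3.

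**Figure D2:**
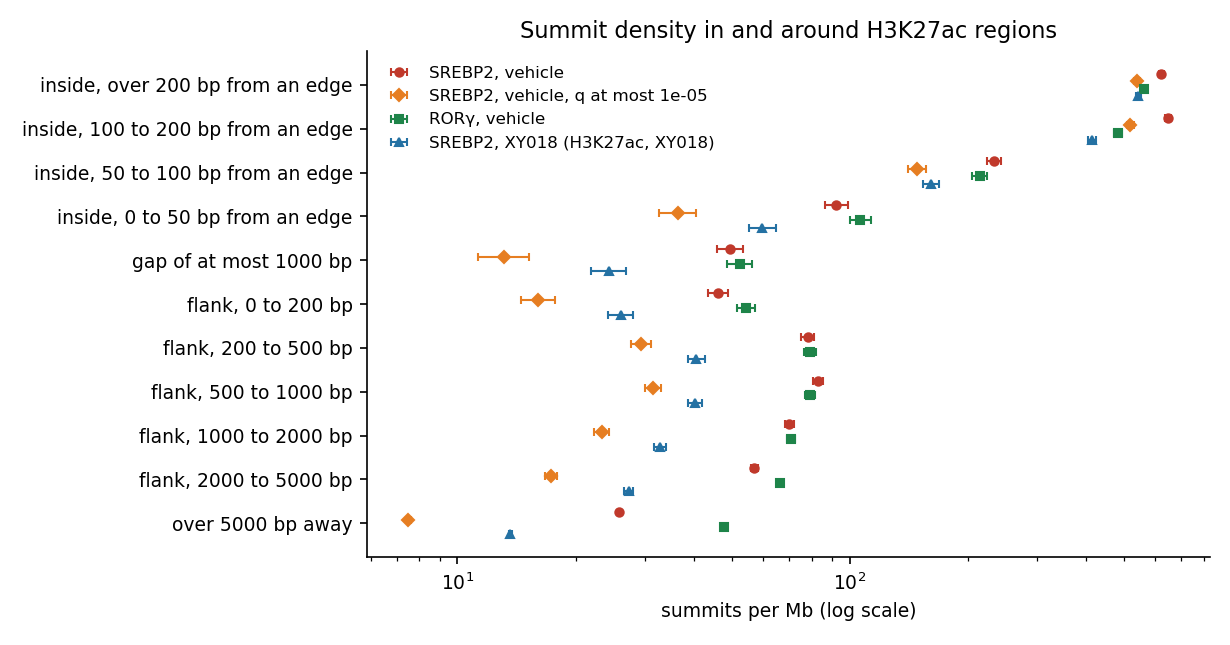
Summits per Mb (horizontal axis, log scale) by class of chromatin relative to acetylated regions (vertical axis), with exact Poisson 95% intervals. Classes run from the interior through edges, gaps of at most 1000 bp and flanks to chromatin over 5000 bp away. Symbols mark SREBP2 with vehicle, the same at q of at most 1e-05, RORγ with vehicle, and SREBP2 with XY018 against H3K27ac with XY018. For all SREBP2 peaks with vehicle, density is highest inside regions at 623 to 650 per Mb and is 49.5 per Mb in gaps.

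The 34798 gaps were examined further, since a gap over a transcript start is where a depleted stretch is most often seen. Their median length was 326 bp, and 665 of them, 1.91% (1.77 to 2.06), held a SREBP2 summit. The 2341 gaps that contained the start of a protein-coding gene held a summit in 123 cases, 5.25% (4.39 to 6.24), which is 123 per Mb (102 to 146), against 591 per Mb in the acetylated regions beside them. Gaps of 150 to 400 bp held 34.1 per Mb, and those of 400 to 1000 bp held 55.5. Where both flanking regions had a fold of at least 10, the gaps held 72.7 per Mb (54.3 to 95.4) and their flanks 585. In each of these classes SREBP2 was sparser in the gap than in the acetylated regions on either side.

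Transcript starts told the same. The starts taken were those of protein-coding transcripts marked as Ensembl canonical in the annotation. Of these, 10376 lay inside an acetylated region, and 57.0% (56.0 to 58.0) of those had a SREBP2 summit within 250 bp. Another 783 starts lay in a gap, of which 17.5% (14.9 to 20.3) had one, and 8578 lay elsewhere, of which 21.0% (20.2 to 21.9) had one. Starts in a gap thus had no more SREBP2 than starts in neither an acetylated region nor a gap. The latter can include starts close beside a region.

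The promoter gaps with the strongest SREBP2 peaks were named by rule. ABCA2, a lipid transporter of the ABC family, had a SREBP2 peak at chr9:139905690-139906381 of fold 13.7 with 28 fragments in a gap of 513 bp whose flanks had H3K27ac folds of 5.99 and 10.1. CYP26B1, which breaks down retinoic acid, had fold 11.6 with 23 fragments in a gap of 907 bp between flanks of 5.53 and 7.25. SLCO4A1, an organic anion transporter, had fold 11.3 in a gap of 950 bp between flanks of 4.61 and 5.56. The remaining named sites were DPP7, a lysosomal peptidase, with fold 10.4 in 680 bp, and ZMIZ1, a transcriptional coregulator, with fold 10.4 in 657 bp. Of the 5 gaps, 4 had at least 1 weak flank under fold 8, and the ZMIZ1 gap lay between strong flanks of 35.0 and 61.7. These promoters show the arrangement of a factor between acetylated regions, which was rare in these lists.

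Summits of both signals nearly coincided. Over the 32034 overlapping SREBP2 peaks, the median distance to the nearest H3K27ac summit was 54 bp (53 to 56), 48.0% lay within 50 bp, 64.0% within 100 bp and 10.7% beyond 500 bp. The median was 57 bp at promoters, 52 bp in gene bodies and 55 bp between genes. From acetylated regions to SREBP2 it was 50 bp (49 to 51). For comparison, SREBP2 summits lay 44 bp from those of the SREBP2 XY018 library, and H3K27ac summits lay 48 bp from those of the H3K27ac XY018 library. These same-antibody pairs cross treatments, and across treatments SREBP2 vehicle summits lay 63 bp (61 to 65) from H3K27ac XY018 summits. RORγ summits lay 68 bp from H3K27ac summits (67 to 70), and 58 bp separated SREBP2 and RORγ summits. All these pairs share 1 cell line and, through each antibody, their libraries.

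**Figure D3:**
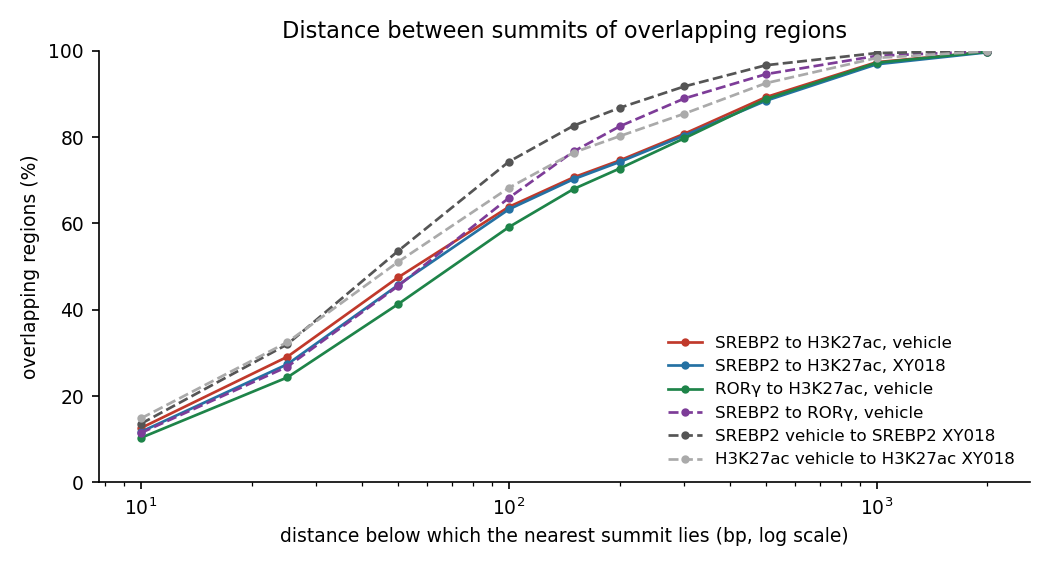
Cumulative percent of overlapping peaks (vertical axis) whose nearest summit of the other list lay below a given distance in bp (horizontal axis, log scale). Curves are drawn for SREBP2 to H3K27ac with vehicle and for the comparator pairs. SREBP2 to H3K27ac has a median of 54 bp, and the same-antibody pairs across treatments have medians of 44 and 48 bp.

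The coincidence was closer than the width of the regions would give. In acetylated regions of 190 to 500 bp, 87.0% (86.3 to 87.7) of SREBP2 summits lay within 100 bp of the H3K27ac summit, a stretch that covers 54.7% of their bases. In regions of 500 to 1000 bp it was 69.0% in 28.0% of bases, in regions of 1000 to 2000 bp 53.3% in 14.6%, and in those of 2000 bp or more 37.8% (36.1 to 39.6) in 7.52%. SREBP2 summits were thus concentrated near the called H3K27ac summit in every width class, most of all by proportion in the broadest. Whether a narrow dip lies at such a summit cannot be told from these lists. Distances from the SREBP2 summit to the nearest edge had medians of 133, 223, 417.5 and 734 bp in these classes, against 150, 229, 452 and 851.5 bp for the H3K27ac summit itself.

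Strength changed the distance. From the weakest to the strongest of 10 classes of shared SREBP2 peaks by fold, the median distance to the H3K27ac summit went from 136 bp (129 to 144) to 40 bp (37 to 42), and the share within 50 bp from 25.6% to 56.6%. By H3K27ac fold the course was not monotonic: 87 bp in the weakest class, 43 bp in the 2 middle ones, and 64 bp (59 to 71) in the strongest. The strongest acetylated regions had a median fold of 62.7, and in them the summits of the factor and the mark stood farther apart than at middle strengths.

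Around protein-coding starts both signals had a similar profile. SREBP2 had 26293 summits within 1000 bp of a start, at a median of 48 bp downstream (43 to 52), and its fullest bin, with 2832 summits, was centred on the start. H3K27ac had 23872, at a median of 71 bp downstream (67 to 76), and its fullest bin, with 1824, was centred 150 bp downstream. In the H3K27ac XY018 library the fullest bin, with 1827, was centred on the start. For the 15080 shared peaks in this window, the H3K27ac summit lay a median of 3 bp (2 to 4) downstream of the SREBP2 summit, and downstream of it in 52.1% (51.3 to 52.9). Among the 4236 whose summits were more than 200 bp apart it was downstream in 52.6%. H3K27ac thus leaned downstream of SREBP2 by a few bp only, without placing the factor on one fixed side of the acetylated summit.

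**Figure D4:**
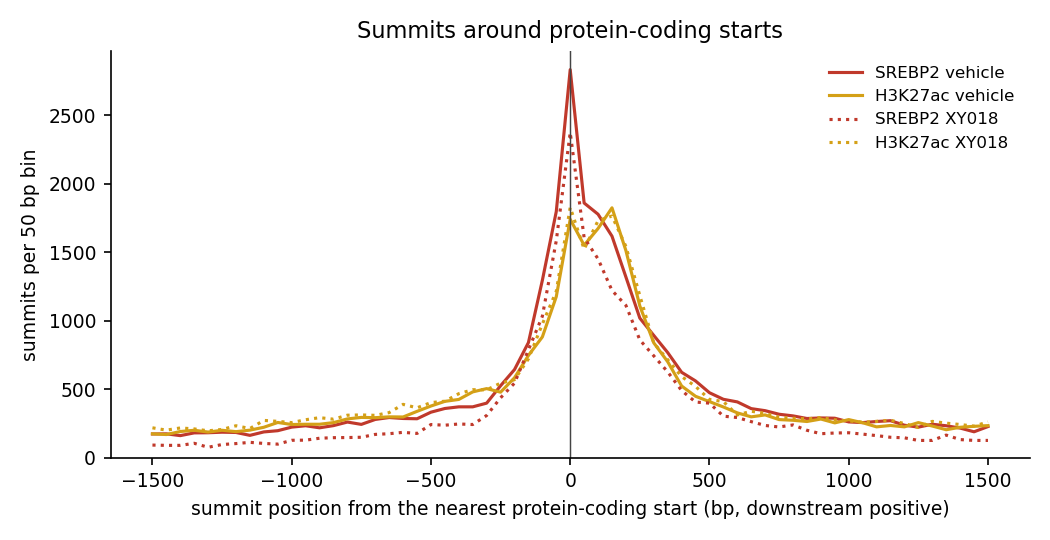
Number of summits (vertical axis) by position relative to the nearest protein-coding transcript start in bp (horizontal axis, downstream positive). Lines are drawn for SREBP2 and H3K27ac with vehicle (solid) and with XY018 (dotted). With vehicle, SREBP2 is highest at the start with 2832 summits in its fullest bin, and H3K27ac is broader, with 1824 at 150 bp downstream.

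SREBP2 peaks without H3K27ac were mostly far from any acetylated region. The median distance from such a peak's summit to the nearest edge was 20001 bp (19607 to 20422) over 85407 peaks, and 61.3% were more than 10 kb away. It was 12881 bp at promoters, 15348 bp in gene bodies and 37149 bp between genes. Only 9.11% lay within 1000 bp, so a near miss of the 1 bp overlap accounted for few of them.

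The strongest distal sites, 3 per class, were named by rule, and all 12 of them overlapped RORγ peaks and SREBP2 peaks of the XY018 library. In gene bodies with H3K27ac, the strongest SREBP2 peak lay in APBB1IP, an adaptor of integrin signalling, at chr10:26855764-26856504 with fold 42.6 and 98 fragments, while the H3K27ac there had fold 6.07 and 14 fragments, 56 bp between summits. The CCDC171 peak printed above had SREBP2 fold 38.8 with 116 fragments and H3K27ac fold 4.26 with 22 fragments. The remaining one lay in the non-coding LINC01685, with SREBP2 fold 37.6 and H3K27ac fold 8.32. These strongest distal SREBP2 sites thus carried H3K27ac of middling fold, around the 5.99 median of its list.

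Those without H3K27ac were as strong. ZNF248, a zinc finger gene, had SREBP2 fold 39.5 with 79 fragments, and the nearest H3K27ac summit was 77225 bp away. ZFHX4-AS1 had fold 39.4 and PAX7, a factor of muscle stem cells, had fold 37.2 at chr1:19043033-19044034, 46455 bp from the nearest H3K27ac summit. Between genes, the site nearest PCMTD2 had SREBP2 fold 38.5 and H3K27ac fold 7.83, and that nearest SRRM3 had 34.0 and 19.4. Another acetylated site, nearest STMND1, had 36.5 and 5.07. Without H3K27ac, the site at chr3:176079914-176080589 had fold 37.2 with 86 fragments and stood 404391 bp from an H3K27ac summit. The others lay near APBB1IP, with fold 35.3, and near ZNF729, with fold 34.0 and 987826 bp to the nearest H3K27ac summit. High SREBP2 enrichment was therefore found both beside and far from acetylated chromatin.

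The third question was which promoters carried 1 signal only. Of 20098 protein-coding genes, 14188 (70.6%) had a SREBP2 peak at a promoter, 13424 (66.8%) had H3K27ac, 11770 (58.6%) had both, 2418 (12.0%) had SREBP2 only, 1654 (8.23%) had H3K27ac only and 4256 (21.2%) had neither. SREBP2 was present at 87.7% (87.1 to 88.2) of acetylated promoters and at 36.2% (35.1 to 37.4) of the others. At genes with both signals the SREBP2 summit lay inside an acetylated region in 93.9% and within 50 bp of its summit in 47.9%.

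Strength was compared by the highest-fold peak of each gene. That peak can lie at any annotated start of the gene, and the peaks of both signals can lie at different starts. Over all promoter SREBP2 peaks the median fold was 11.3 with H3K27ac and 5.42 without. By the highest peak per gene, the median SREBP2 fold was 12.6 with 30 fragments at genes with both signals and 11.3 with 25 fragments at genes with SREBP2 only. The median H3K27ac fold was 28.6 with both and 8.29 with H3K27ac only. Genes acetylated without SREBP2 were thus mostly weakly acetylated. The promoter window set part of these classes. Of the genes with H3K27ac only, 190 (11.5%) had an acetylated region that met a SREBP2 peak outside the window, and their median H3K27ac fold was 18.0, against 7.83 for the other 1464. Of the genes with SREBP2 only, 67 (2.77%) had the SREBP2 summit inside an acetylated region that missed the promoter window.

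CpG content moved with both signals. The median promoter had 5.81 CG dinucleotides per 100 bp with both, 3.91 with SREBP2 only, 3.63 with H3K27ac only and 1.09 with neither. When genes were divided into 5 classes of equal size by CpG content, SREBP2 was found at 10.5% of the unacetylated promoters of the lowest class and at 92.8% (89.6 to 95.2) of those of the highest class, and at 55.9% and 99.1% of acetylated ones. H3K27ac itself rose from 19.7% to 91.1% over the classes. Within each class SREBP2 was more frequent with H3K27ac, and the difference was smallest where CpG content was highest. The part of base composition in recovery by ChIP-seq was not tested.

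RORγ was found with SREBP2 rather than with acetylation at these genes. It was at 86.3% of genes with both signals and 80.5% (78.8 to 82.0) of those with SREBP2 only, against 9.31% (7.95 to 10.8) of those with H3K27ac only and 7.73% of those with neither. With XY018, 60.8% of genes with SREBP2 only again had SREBP2 only, 13.9% had both and 21.4% had neither. Of genes with H3K27ac only, 84.0% again had H3K27ac only and 5.08% had both. The classes were thus found again in most of their genes in the other pair of libraries.

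Genes of cholesterol synthesis, the best known targets of SREBP2, carried both signals at 18 of 21 promoters, and the 7 other known targets all did. FDPS, which makes farnesyl diphosphate, and PMVK, phosphomevalonate kinase, had H3K27ac only, at folds of 20.0 and 13.1, the FDPS region meeting a weak SREBP2 peak of fold 3.36 beyond the window, and HSD17B7, a sterol 3-ketoreductase, had neither. SREBP2 fold ranged from 3.96 to 28.2 over the pathway. Since 58.6% of all genes had both, these counts lie above the background but single out no gene.

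The mevalonate steps varied widely. Where a pair of folds is given for a gene here and in the next paragraphs, SREBP2 comes first and H3K27ac follows. ACAT2, which joins the first acetyl-CoA units, had SREBP2 fold 7.40 (14 fragments) and H3K27ac fold 35.9 (77 fragments). HMGCS1, HMG-CoA synthase, had only 8 SREBP2 fragments at fold 4.44 and H3K27ac fold 10.6, with summits 241 bp apart. These early steps thus had SREBP2 folds below the 12.6 median of genes with both signals. MVK, mevalonate kinase, had 8.88 and 21.2. MVD, which decarboxylates mevalonate diphosphate, had the highest SREBP2 fold of the pathway, 28.2 with 69 fragments (53.7 to 87.3) at chr16:88728607-88730532, and H3K27ac fold 39.5. IDI1, the isomerase that follows, had 17.5 and 63.1, with its summits 3 bp apart.

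The steps from squalene on follow. FDFT1, squalene synthase, had SREBP2 fold 10.8 and H3K27ac fold 24.9. SQLE, squalene epoxidase, had 16.7 with 54 fragments and 17 with 61 fragments, the pathway gene with the most equal folds. LSS, which closes the sterol ring, had 10.2 and 73.7. These enzymes commit carbon to sterols. CYP51A1, which removes the 14-methyl group of lanosterol, had 35 and 135 fragments, with summits 92 bp apart. TM7SF2 and LBR, which reduce the next double bond, had SREBP2 folds of 10.4 and 20.5 and H3K27ac folds of 51.6 and 50.3. MSMO1 and NSDHL, which take off the 4-methyl groups, had SREBP2 folds of 3.96, the lowest of the pathway, and 9.86. They were the only ones of the 18 whose SREBP2 summit lay outside any acetylated region, 459 and 349 bp from the nearest H3K27ac summit. At NSDHL that nearest summit belonged to another acetylated region than the strongest one at its promoter.

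The last steps closely paired both signals. EBP, a sterol isomerase, had SREBP2 fold 7.72 and H3K27ac fold 25.3, 14 bp apart. SC5D, the lathosterol oxidase, had 15.4 and 43.3, and DHCR7, which makes cholesterol from 7-dehydrocholesterol, had 13.6 and 43.1 with summits 4 bp apart. Over the 18 genes, 11 had summits within 50 bp, at a median of 20 bp. Of all genes with both signals, 47.9% had summits within 50 bp. The median over all overlapping SREBP2 peaks, not only the highest of each gene, was 54 bp. At genes with both signals it was 110 bp over the other known targets and 173 bp over fatty acid synthesis. Over cytosolic ribosomal protein genes it was 29.5 bp, and over canonical histone genes 23 bp. Close summits were thus not particular to the pathway.

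The other targets include the regulators of the pathway. INSIG1, which holds SREBP2 in the endoplasmic reticulum, had 19.1 and 59.1 and summits 619 bp apart. SREBF2, the gene of SREBP2 itself, had 20.3 and 95.8 and summits 294 bp apart. These genes had both signals within 1 acetylated region but at separate points. NPC1L1, the intestinal sterol transporter, had 10.5 and 15, 5 bp apart. STARD4 and TMEM97, which handle sterol transfer and NPC1 turnover, had SREBP2 folds of 4.70 and 8.53.

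A match to the SRE, searched as TCACNCCAC on both strands within 250 bp of the SREBP2 summit, was found at 1 of the 25 target genes with a SREBP2 peak. It is shown because it is the element known to bind SREBP2, here beside a weak SREBP2 peak, in capitals with 10 bases to either side, on the - strand of GRCh37.
HMGCS1, chr5:43313755-43313783: cgtcagtctcTCACACCACttcctcggcc
It lay 201 bp from the SREBP2 summit and 442 bp from the H3K27ac summit, outside the SREBP2 peak at chr5:43313495-43313687.

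**Figure D5:**
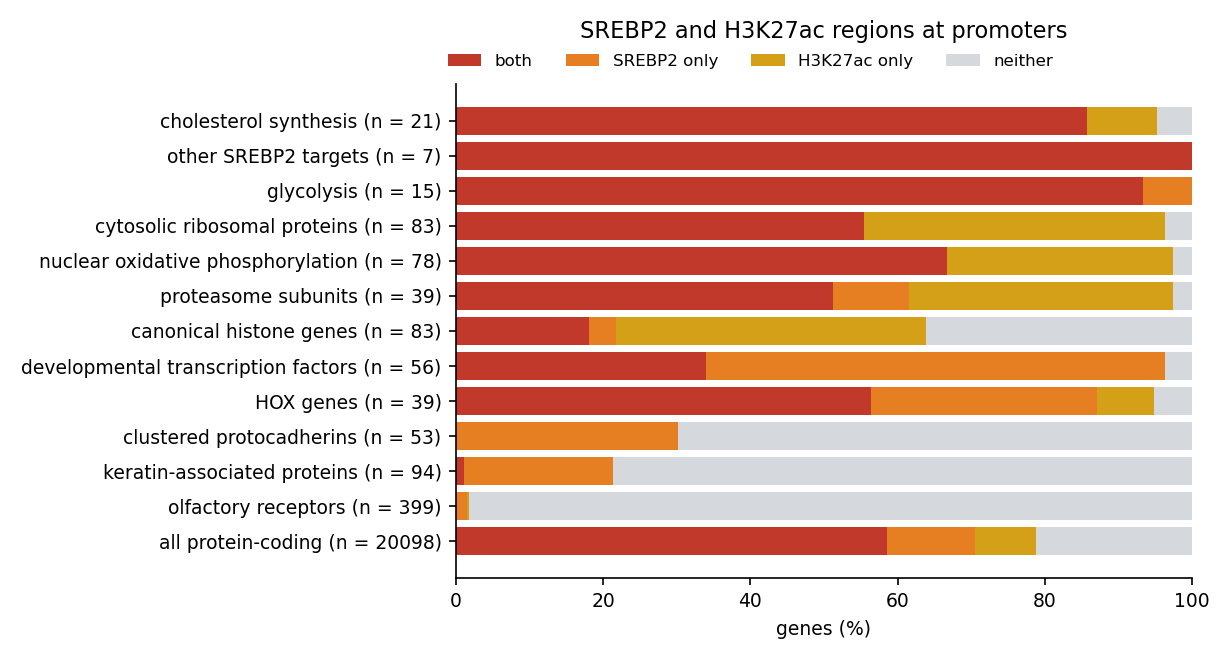
Percent of genes (horizontal axis) in each gene list whose promoter had both signals, SREBP2 only, H3K27ac only or neither, beside all protein-coding genes. Cholesterol synthesis is nearly all both, ribosomal and histone genes hold much H3K27ac only, and developmental transcription factors and protocadherins hold much SREBP2 only.

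Other gene groups parted along the 1-signal classes. Fatty acid synthesis had both signals at 9 of 10 genes, with FASN at SREBP2 fold 20.7 and H3K27ac fold 63.1, and ELOVL6 had neither. That FASN SREBP2 summit lay 12780 bp downstream of the canonical start and outside the acetylated region quoted. The region itself met another SREBP2 peak, of fold 20.3. Glycolysis had both at 14 of 15, with GAPDH at 17.8 and 94.9, and ALDOC, the brain aldolase, had SREBP2 only. The share of all genes with both was 58.6%, and FADS1 and FADS2 of the first list share 1 peak of each antibody.

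H3K27ac without SREBP2 was frequent in housekeeping lists. Of 83 cytosolic ribosomal protein genes, 46 had both and 34 had H3K27ac only, among them RPL38 at H3K27ac fold 24.4, RPL23A at 18.4 and RPS9 at 18.4. In RPL38 and RPL23A the region met SREBP2 beyond the window, as it did in 3 of the 34, and in RPS9 it did not. None had SREBP2 only. Proteasome subunits gave 20 with both and 14 with H3K27ac only of 39, and nuclear genes of oxidative phosphorylation 52 and 24 of 78, with UQCRQ at H3K27ac fold 15.2 and NDUFS5 at 13.8. Canonical histone genes gave 15 with both, 35 with H3K27ac only and 30 with neither of 83. Many histone genes lie close together in pairs and share 1 region, so these genes are not separate observations. The background for H3K27ac only was 8.23%.

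SREBP2 without H3K27ac was frequent at genes of development. Of 56 developmental transcription factors, 35 had SREBP2 only and 19 had both, with a median SREBP2 fold of 14.3 and a median H3K27ac fold of 6.16 where present. Examples are PAX5, a B cell factor, at SREBP2 fold 29.9 with 88 fragments, SIX6, an eye factor, at 23, SOX1, a neural factor, at 20.7, and GSC, goosecoid, at 19.1. FOXL2, an ovarian factor at 21.9, belongs to this class by its promoter window, but its SREBP2 summit lay 23 bp from that of an acetylated region outside the window. Of the 56 genes, 55 had RORγ, which was at 62.6% of all protein-coding genes.

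Clustered gene families differed among themselves. HOX genes gave 12 of 39 with SREBP2 only, among them HOXD12 at fold 19.7, HOXD1 at 17.8 and HOXD9 at 16.8. HOXA4, with both signals, had SREBP2 fold 28.1 and H3K27ac fold 20.8. Clustered protocadherins, which give neurons their surface identity, had SREBP2 only at 16 of 53, with PCDHA10 at fold 17.8, and no H3K27ac at any. Keratin-associated protein genes had SREBP2 only at 19 of 94. Olfactory receptors, silent in most tissues, had SREBP2 only at 6 of 399, H3K27ac only at 1 and neither at the rest. Zinc finger (ZNF) genes gave 280 with both, 81 with SREBP2 only, 57 with H3K27ac only and 90 with neither of 508. The background for SREBP2 only was 12.0%.

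The strongest single promoters were named by rule. With both signals the highest SREBP2 folds were those of PRKAR1B, a regulatory subunit of protein kinase A, at 44.3 with 111 fragments, ZDHHC11B, a palmitoyltransferase, at 42.2, CACNA1B, a neuronal calcium channel, at 41.1 with 130 fragments, TPPP, a tubulin-binding protein, at 37.7, and L1TD1, an RNA-binding protein of stem cells, at 36.1. The H3K27ac folds at ZDHHC11B, CACNA1B, TPPP and L1TD1 were 11, 3.99, 10.6 and 17.5. At PRKAR1B the strongest peaks of SREBP2 and H3K27ac (fold 38.4) belonged to different starts of the gene. Apart from PRKAR1B, these promoters had H3K27ac folds below the 28.6 median of their class.

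With SREBP2 only the 8 strongest were PXDNL (36.5), ZNF100 (33.5), CDC14C (33.5), COL6A6 (32.3), CRYM (32.0), AMPH (31.7), FAM163A (31.4) and CCDC166 (31.4). COL6A6 encodes a collagen chain, CRYM a thyroid hormone-binding protein and AMPH amphiphysin of synaptic endocytosis. The PXDNL and ZNF100 summits lay 400110 and 16861 bp downstream of the canonical start, and the CRYM summit at -5562 bp from it. These peaks fell in the promoter windows of other transcripts of those genes. All 8 genes also had RORγ with vehicle and SREBP2 with XY018. Only CRYM had an acetylated region in the XY018 library, and the CCDC166 summit lay in an acetylated region that missed the promoter window.

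With H3K27ac only the 8 strongest were INO80D at fold 77.9 with 214 fragments, ENSG00000285629 at 76.7, NINJ2 at 72.7, AC009065.1 at 66.0, ENSG00000291302 at 65.1, MIURF at 64.6, GRHL2 at 61.2 with 168 fragments and ENSG00000285779 at 60.6. INO80D is a subunit of a chromatin remodeller, NINJ2 an adhesion protein and GRHL2 a factor of epithelial identity. The NINJ2 summit lay 20418 bp downstream of the canonical start. None of the 8 had SREBP2 in the XY018 library, and NINJ2 alone had RORγ. In all 8 the acetylated region met a SREBP2 peak outside the promoter window, of fold 10.4 at INO80D, 8.93 at NINJ2 and 16.3 at GRHL2. The region of ENSG00000285629 was also that of RPL22, which had both signals. The strongest genes of this class thus owed their place to the window, and its weaker members mostly to acetylated regions free of SREBP2.

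Base composition and motifs were compared in 201-bp windows on the summits, by class. A match is a description and not a binding site. GC content at SREBP2 summits was 73.0% at acetylated and 65.6% at unacetylated promoters, 66.0% and 58.4% in gene bodies, and 65.9% and 56.4% between genes. Acetylated regions without SREBP2 had 53.2%, 50.7% and 50.7% in the same order. SREBP2 peaks of every class were thus richer in GC than acetylated regions that SREBP2 left free. CG dinucleotides ran from 10.2 per 100 bp at acetylated promoter SREBP2 peaks to 3.10 at unacetylated intergenic ones, against 1.54 to 2.53 in acetylated regions without SREBP2.

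The GC box, GGGCGG, which binds SP1 family factors, followed composition. It was in 65.6% of acetylated promoter SREBP2 windows and 38.0% of unacetylated ones, 37.6% and 19.5% in gene bodies, and 42.2% and 17.9% between genes, against 16.1%, 13.4%, 12.8%, 7.79%, 10.8% and 5.76% in windows 1000 bp to either side. All protein-coding starts had it in 53.8%. Among peaks with q of at most 1e-05 the gap between acetylated and unacetylated windows was smaller, 46.5% against 37.1% in gene bodies and 56.2% against 39.9% between genes.

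The SRE was rare in every class and, over all SREBP2 peaks as deposited, more frequent without acetylation. It was in 0.759% of acetylated and 1.47% of unacetylated promoter windows, 1.95% (1.71 to 2.22) and 2.98% (2.83 to 3.14) in gene bodies, and 1.95% and 3.21% (3.0 to 3.43) between genes. Windows 1000 bp away held it in 1.37%, 1.56%, 1.94%, 1.72%, 2.18% and 1.62% in the same order. The unacetylated gene body and intergenic peaks were thus the ones above their surroundings beyond counting error. At q of at most 1e-05 these fell to 1.3% and 1.13%, beside 1.16% and 0.598% of acetylated peaks. Both values were below the 1.72% and 1.62% of windows 1000 bp from all such unacetylated peaks. Promoter windows at that q held the SRE in 0.822% without and 0.7% with H3K27ac. At that q the intervals with and without H3K27ac overlapped at each position, so neither excess held for the stronger peaks. All protein-coding starts had the SRE in 0.689%, and acetylated regions without SREBP2 in 2.17% at promoters, 2.71% in gene bodies and 2.60% between genes. CCAAT, the NF-Y box, was in 7.97% and 11.4% of promoter SREBP2 windows, with and without H3K27ac, against 19.6% in both sets of windows 1000 bp away and 25.2% of starts. The AP-1 site, TGANTCA, was in 1.37% and 1.74% of promoter SREBP2 windows against 3.08% of starts.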

How the data were processed

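ChIP-seq of HCC70 cells gave 12 samples, of which 6 immunoprecipitated libraries were used and 6 inputs were not. Groups came from the labels of antibody and treatment. The submitters' processing notes name Bowtie2, MACS2 2.1.0, bedtools and hg19, and the methods name BWA. The authors deposited 1 peak list per library, with fold enrichment as a ratio, −log10 p and −log10 q values, and a summit offset. The deposited display score, a scaled whole-number copy of the −log10 p, was not used. The deposited H3K27ac vehicle list is part of a longer call set, 95100 of peak numbers up to 245055, by a rule not given in the sources used here. The deposited lists reach q of 0.417 for SREBP2 and 0.212 for H3K27ac.

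Peaks were compared by at least 1 bp with python 3.11.15, numpy 2.4.6, pandas 2.3.3 and scipy 1.17.1, and GENCODE 44 lifted to GRCh37. No peaks within a list overlapped, and 0 ended beyond a chromosome. Fragments at a summit were recovered from fold and −log10 p under the Poisson model of MACS2, whole within 5% of a step for 99.97% of SREBP2 peaks and 100% of H3K27ac peaks. This gave depths of 5.56 and 6.16 tags per kb and median summits of 10 and 15 fragments. Shares have Clopper-Pearson and densities exact Poisson 95% intervals. The overlap, distance and fragment steps were tested on simulated data.

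A gene's highest-fold peak over any promoter window was taken. Named by rule were the cholesterol targets, the 5 strongest genes with both signals, the 8 strongest with each signal alone, the 5 strongest promoter gaps and the 3 strongest distal peaks of each class. List examples were picked from the strongest of each class after their values were seen. The members, lists and tests were chosen with earlier results of these data known. Alternatives in threshold, overlap, window, list length, gap and treatment pair were computed. A few genes and sequences are not reported here.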

Additional observations from a re-analysis of the deposited data

Results flagged for a closer look

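Outside the chromosomes compared, signal appeared in data the comparisons did not use. The SREBP2 vehicle list held 55 peaks outside chromosomes 1 to 22 and X, more than the 3 that a count of 0 allows, and the H3K27ac vehicle list held 1. With 1 library per group, no sample could be set against others of its group.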

How the results depend on the processing

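No paired analysis was possible because each group held 1 library, and for the same reason no replicate could be left out. Of 131 alternatives computed, 97 moved the value by more than its counting interval (counts of genes, by over 1.5 times) and 34 did not. A reversal of direction was not scored. The 27.3% of SREBP2 peaks with H3K27ac became 33.9% with both lists at q of at most 0.01, 47.7% at 1e-05, 43.7% with the 50000 strongest peaks of each, 26.5% with 50% overlap, 26.2% by summits, 27.6% with acetylated regions joined across gaps, and 50.2% with SREBP2 alone at q of at most 1e-05, an alternative chosen after seeing the data. The 32.1% of acetylated regions with SREBP2 became 30.2% at q of at most 0.01, 42.1% with the 50000 strongest, 31.3% with 50% overlap, 29.2% by summits and 40.5% when joined. The 490 summits per Mb inside became 457, 446 and 509 (q of at most 0.01, 1e-05, 50000 strongest), 373 with XY018 and 399.7 with SREBP2 alone at 1e-05. The 49.5 per Mb in gaps became 34.9, 13.8, 15.8, 24.3 and 13.1 in that order, 35.2 for gaps of at most 500 bp and 67.9 for at most 2000 bp. Density inside stayed 7.22 to 32.2 times that in gaps. The median summit distance of 54 bp became 50, 44, 44, 58 and 45 bp in the same order. Genes with H3K27ac only fell from 1654 to 1074 with a window of 5000 bp to either side.

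The share of SREBP2 peaks moved most with the q threshold and the list length, and its order, promoter above gene body above intergenic, held in each alternative run. With a median of 10 fragments at SREBP2 summits and 15 at H3K27ac summits, weak sites of either signal can be missed, so "only" means not called at this depth. Antibody, library and depth cannot be told apart with 1 library per group.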
